A study of Mus musculus with 10 samples.

Results

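Cytosolic ribosomal protein genes were followed across 4 groups of MEFs, the fibroblasts that grow out of minced mouse embryos, here in immortalised form. The genes were chosen by symbol alone, as Rpl or Rps followed by a digit, together with Rplp0, Rplp1, Rplp2 and Rpsa. S6 kinases (Rps6k), symbols ending in -ps (pseudogenes, 6 rows) and Rps19bp1 were left out. This gave 85 of 23337 gene symbols, 52 of the large (60S) and 33 of the small (40S) ribosomal subunit. The groups were Slfn2 WT cells left untreated (3 libraries), Slfn2 WT cells given mouse interferon-β (IFN-β) at 5000 IU/ml for 6 h (3 libraries), and Slfn2 KO cells left untreated or given the same IFN-β dose and time (2 libraries each). Slfn2 is a Schlafen family gene that type I interferon induces, and the series asks how its loss alters interferon responses. Per the labels, wells were plated from a WT and a KO cell culture, so each p-value measures the spread between such wells and not between independently derived lines. All cells were immortalised, and how the knockout was made is not given in the sources used here.

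The cytosolic ribosome joins the 40S subunit, which decodes mRNA, to the 60S subunit, which forms peptide bonds. Each subunit is a core of ribosomal RNA covered by ribosomal proteins, nearly all of them present once per particle, so growing cells make these proteins in near-equal numbers. Their mRNAs are among the most abundant in dividing fibroblasts and start with a run of pyrimidines, the TOP element, through which mTOR signalling sets their translation. Ribosomal protein genes have also left many processed pseudogenes, intronless copies of the mRNA pasted elsewhere in the genome, and a short read from a gene can be identical to such a copy.

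Values are gene read counts divided by a library size factor, called normalised reads here. Libraries held 13565815 to 16329729 reads. The targeted gene was measured at 18.7, 17.4 and 15.5 normalised reads in the untreated WT-labelled libraries and 46.1 and 34.9 in the untreated KO-labelled ones. With IFN-β it stood at 527, 449 and 573 in the WT-labelled and 74.98 and 171 in the KO-labelled libraries, lower with the KO label (log2 difference −2.17 ± 0.36 SE, limma adjusted p = 0.00816). Because Slfn2 reads were present in the KO-labelled libraries and were no lower than WT before treatment, genotype is written throughout as labelled. Fibroblast markers (10 genes, among them the collagen gene Col1a1 and Vim) summed to 214391 to 314611 normalised reads in the WT-labelled and 302096 to 479154 in the KO-labelled libraries. The small proteoglycan gene Dcn went against that sum, lower with the KO label with a log2 difference of −4.44 ± 0.18 (SE) untreated (limma adjusted p = 7.03e-06). Haematopoietic and macrophage markers summed to at most 418, epithelial markers to 5.24, endothelial markers to 20.2 and muscle markers to 16.02, with Myod1 and Myog at 0. Markers of the neural list summed to 2402 to 4286 with the WT label and 1022 to 1386 with the KO label. On that list Sox2 was higher with the KO label (log2 difference 7.35 ± 0.52 SE untreated and 6.80 ± 0.52 with IFN-β, limma adjusted p = 0.000104 and 0.00015) and Nes lower (−2.09 ± 0.38 and −2.00 ± 0.38, adjusted p = 0.0128 and 0.0156).

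Of the 85 genes, 80 passed the low-count filter and were tested. The other 5 were Rpl10l, Rpl39l, Rps4y2 and Rpl26, with 0 reads in every library, and Rpl3l, with 3 reads in all. A count of 0 allows up to 2.73 to 3.29 normalised reads in a library (3 reads), which covers counting error only. Rpl10l, Rpl39l and Rpl3l are known for expression in testis or muscle. Rpl26 is different, since its protein lines the exit of the peptide tunnel in every ribosome.

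The sequences below show how much coding sequence the members share with other loci. For 84 of the 85 genes, matched by symbol (83) or by a RefSeq synonym (Rps3a), the coding sequence was taken from the GENCODE M21 annotation of GRCm38, the build also named mm10. It was cut into all overlapping windows of 50 bases, and windows also present in a transcript at another locus were counted. Each line gives 60 coding bases within an exon around the middle of the coding sequence, 5′ to 3′. Rps13 (chr7:116332994-116333053, minus strand), Rpl5 (chr5:107903757-107903816, plus strand) and Rpl15 (chr14:18269907-18269966, minus strand) were chosen as members in which every 50-base window occurs at some other locus. Whether a single locus holds all windows of a gene was not counted. Rps3 (chr7:99480004-99480063, minus strand) and Rpl8 (chr15:76904893-76904952, plus strand) share less than the other 3. Capitals mark bases that differ from the closest other locus within 10 mismatches.
Rps13: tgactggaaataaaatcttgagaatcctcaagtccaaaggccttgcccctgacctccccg
Rpl5: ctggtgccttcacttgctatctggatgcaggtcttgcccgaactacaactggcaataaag
Rpl15: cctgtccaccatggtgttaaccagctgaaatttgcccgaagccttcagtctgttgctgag
Rps3: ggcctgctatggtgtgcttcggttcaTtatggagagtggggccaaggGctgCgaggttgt
Rpl8: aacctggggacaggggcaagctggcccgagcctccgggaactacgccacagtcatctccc
The Rps13 stretch was identical at 5 other loci, that of Rpl5 at 4 and that of Rpl15 at 6, so no base is in capitals. The Rps3 stretch differed from its nearest copy, the processed pseudogene Gm8130, at 3 bases. No other locus came within 10 mismatches of the Rpl8 stretch.

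The 85 mRNAs were measured at very unequal levels, although their proteins are needed in near-equal numbers. Per kilobase of coding sequence, Rpl41 stood highest at 75242.5 mean normalised reads over the 10 libraries, followed by Rplp1 (51094) and Rpl8 (42882). Rpl41 encodes the smallest ribosomal protein, and its 75 coding bases make a value per coding length large. At the other end, Rps13 stood at 45.6, Rps29 at 69.6, Rpl30 at 72.1 and Rpl11 at 81.5. Rpl11 and Rpl5 are the proteins that, with 5S rRNA, bind MDM2 when ribosome assembly fails, and Rpl5 was measured at 1218.

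Levels tended to be lower where more coding windows occur elsewhere. In 29 members every window was shared, and their median level was 407 per kilobase (range 45.6 to 75242.5). The 33 members with 75% to under 100% of windows shared had a median of 4376, the 6 with 50% to under 75% had 13590, and the 16 with under 50% had 16437. Across the 84 genes the Spearman correlation of level with shared windows was −0.56. Pearson's r, with the level per kilobase on the log2 scale, was −0.13. With windows of 75 and 100 bases the Spearman values were −0.57 and −0.59. The points share their libraries and the correlation is a description, with no test. Rpl41 was a member with all windows shared and a high level. Rpl26 was the reverse case, with 87.3% of 50-base but 45.8% of 100-base windows shared (12 pseudogenes) and 0 reads. Whether shared sequence sets the measured levels was not tested, because how reads with several matches were counted is not given in the sources used here. Levels of the members with shared windows, in full or in part, are therefore uncertain.

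**Figure D1:**
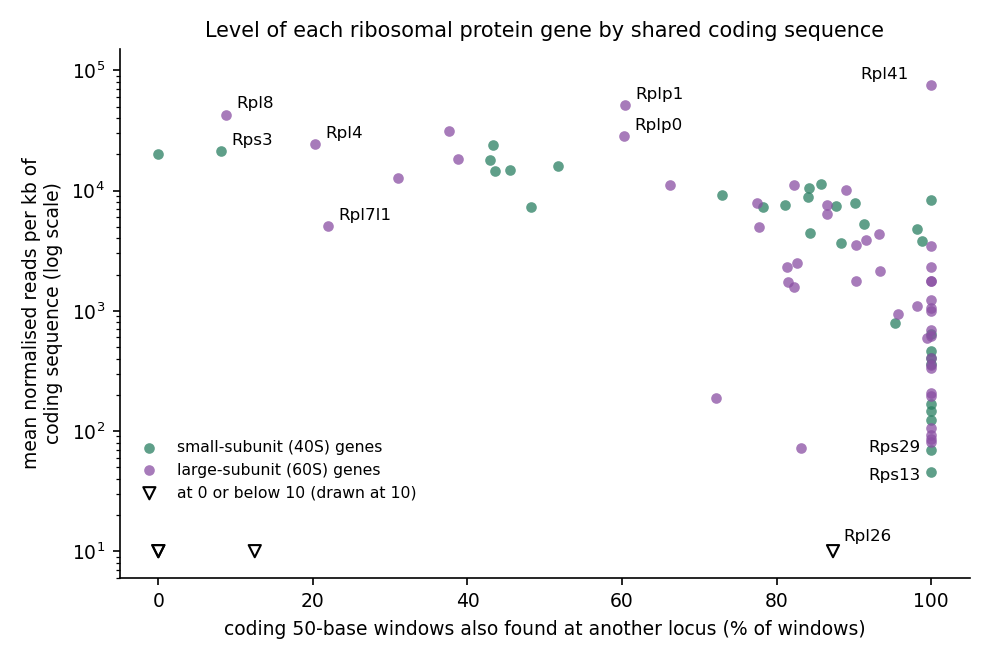
Mean normalised reads per kilobase of coding sequence over 10 libraries (vertical axis, log scale) against the percentage of 50-base coding windows found at another locus (horizontal axis), with a point per gene for 84 genes and triangles for 4 genes at 0 or below 10. The 29 genes with every window shared spread from 45.6 to 75242.5 with a median of 407, below the median of 16437 in the 16 genes with under 50% shared.

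Within paralog pairs, members differed in how much sequence they share. Rpl36a and Rpl36al encode proteins that are identical in 106 of 106 residues, while 39 coding bases differ. In the stretch below, from Rpl36a (chrX:134586519-134586578, plus strand) and Rpl36al (chr12:69182960-69183019, minus strand), 12 of 60 bases differ. Rps27 (chr3:90212985-90213044, minus strand) and Rps27l (chr9:66947587-66947646, plus strand) differ at 16 of 60 bases, and their proteins share 81 of 84 residues. Capitals mark the bases that differ within a pair.
Rpl36a: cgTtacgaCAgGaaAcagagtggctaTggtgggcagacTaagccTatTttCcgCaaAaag
Rpl36al: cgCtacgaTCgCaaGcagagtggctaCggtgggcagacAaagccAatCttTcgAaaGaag
Rps27: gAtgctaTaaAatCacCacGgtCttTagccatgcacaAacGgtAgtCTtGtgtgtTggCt
Rps27l: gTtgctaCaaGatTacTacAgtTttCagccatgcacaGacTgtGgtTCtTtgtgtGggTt
Rpl36al was measured at 2333 normalised reads per kilobase against 105 for Rpl36a, and Rps27l at 7251 against 166 for Rps27. In both pairs the gene with the lower level had every 50-base window shared, while 81.4% were shared in Rpl36al and 48.3% in Rps27l. The other expressed pairs were less unequal per kilobase. Rpl22 stood at 12736 and Rpl22l1 at 2501, and Rpl7 at 7823 and Rpl7l1 at 5061. Of the windows, 31.0% were shared in Rpl22 and 82.6% in Rpl22l1. The Rpl7 pair went the other way, with 77.5% shared in Rpl7, the higher gene, and 21.9% in Rpl7l1. Rpl10 (357) and Rpl3 (946) were measured without their paralogs, as was Rpl39 (7589).

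Promoters shared sequence features beyond the naming rule. Of 63 members with an entry among the RefSeq promoters of GRCm38.p6 (300 bases around the start), 12 (19.05%) held CCGGAAGT on either strand, against 4.27% of 26962 other genes. CCGGAAGT is a site of ETS factors such as GABP. A gene was counted if any of its entries held the motif, and the other genes were not matched to the members by expression. CTTTCC, read on either strand, was in 34 of them (54.0%) and in 29.3% of the others. The motifs were counted separately, although they can share the bases CC at their ends, and overlapping matches were not counted. A match describes letters in the window and is no evidence of binding. The start of Rpl7a (chr2:26910747-26910816, plus strand) is shown as an example of a pyrimidine run at the start site, and that of Rpl5 (chr5:107900468-107900537, plus strand) because Rpl5 is the member that passed in both genotype comparisons. Each line holds 60 bases before and 10 from the annotated start, and capitals mark the longest run of C and T.
Rpl7a: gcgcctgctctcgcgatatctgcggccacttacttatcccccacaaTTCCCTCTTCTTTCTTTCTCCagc
Rpl5: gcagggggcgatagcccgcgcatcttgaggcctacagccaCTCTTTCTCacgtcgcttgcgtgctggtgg
The run had 21 bases in Rpl7a, beginning 14 bases before the start, and 9 bases in Rpl5, beginning 20 bases before it. Neither line contains CCGGAAGT or CTTTCC.

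The share of reads in ribosomal protein genes overlapped between all groups. The share was 2.02%, 2.74% and 2.28% in the untreated WT-labelled libraries (2.35% ± 0.36 SD, n = 3) and 1.98%, 1.98% and 2.21% with IFN-β (2.06% ± 0.13, n = 3). It was 1.90% and 2.31% in the untreated KO-labelled libraries (2.11% ± 0.28, n = 2) and 1.85% and 2.06% with IFN-β (1.96% ± 0.15, n = 2). The share was lower with IFN-β in all 5 pairs of libraries with the same genotype label and number, by amounts that differed widely between pairs. The untreated WT-labelled library numbered 2 stood highest, with 59 of 80 members above their own mean and a median deviation of 0.22 on the log2 scale. In bulk RNA, fewer cells and less RNA per cell cannot be told apart.

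**Figure D2:**
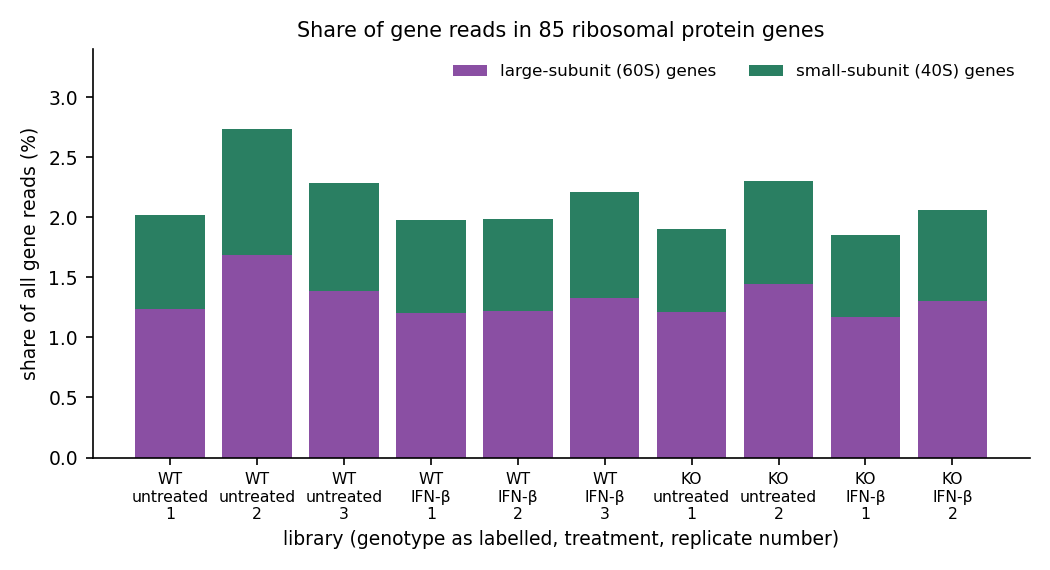
Percentage of all gene reads (vertical axis) that fell in the 85 ribosomal protein genes, with a bar per library and its large-subunit and small-subunit parts stacked. The bars run from 1.85% to 2.74%, and the highest is the untreated WT-labelled library numbered 2.

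The first question was whether 6 h of IFN-β altered these mRNAs. No ribosomal protein gene passed the test in either genotype, while the interferon-stimulated genes Ifit1 and Isg15 rose in both. Ifit1, which binds viral RNA caps, rose by 5.25 ± 0.60 (SE) on the log2 scale with the WT label and 8.46 ± 0.73 with the KO label (limma adjusted p = 0.000976 and 0.000252). Of 80 members, 0 passed in WT-labelled cells, where 2.21% of 12313 tested genes did, and 0 in KO-labelled cells, where 1.84% did. Counts at an unadjusted p under 0.05 were also 0 of 80 in both, beside 6.07% and 4.86% of all genes. Both edgeR and DESeq2 called 0 members. Of all genes, edgeR called 2.1% and 1.66%, and DESeq2 3.33% and 2.44%. With the replicate number as a block the counts stayed at 0, against 4.95% and 3.48% of all genes. With the block, 1 member in WT-labelled cells, Rpl37a, had an unadjusted p under 0.05, beside 15.3% of all genes.

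The unadjusted 95% intervals give the precision of each difference, not the size that would be called after adjustment. In WT-labelled cells the log2 differences ran from −0.35 (Rpl37a) to 0.25 (Rps16), and in 73 of 80 members the 95% interval lay within −1 to 1. In KO-labelled cells they ran from −0.67 (Rps27) to 0.27 (Rpl28), with 67 of 80 intervals inside those limits. The P-stalk genes Rplp0, Rplp1 and Rplp2, whose proteins recruit elongation factors, differed by −0.14 ± 0.18 (SE), −0.12 ± 0.14 and −0.13 ± 0.16 with the WT label. Rpl13a, whose protein leaves the ribosome to silence inflammatory mRNAs in interferon-γ-treated monocytes, differed by −0.08 ± 0.13 with the WT label and 0.02 ± 0.16 with the KO label. Rpsa, the laminin-binding 40S protein, differed by −0.22 ± 0.18 and −0.02 ± 0.22. Rps6, the substrate of S6 kinase, differed by −0.15 ± 0.19 and −0.07 ± 0.24. None of these 6 genes passed in either genotype.

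Most members lay slightly below 0 in WT-labelled cells. There 69 of 80 differences were negative, with a median of −0.13 beside −0.03 for all tested genes. The median was −0.06 without the untreated library numbered 2 and −0.08 without the IFN-β library numbered 2. It was −0.14 and −0.17 without the untreated libraries numbered 1 and 3. Without the IFN-β libraries numbered 1 and 3 it was −0.15 and −0.14. In KO-labelled cells 64 of 80 were negative, with a median of −0.05 beside −0.03 for all genes. Single libraries carried much of this: 45 of 80 were negative without the untreated KO-labelled library numbered 2 (median −0.0074), and 42 of 80 without the IFN-β library numbered 2 (median −0.0089). Without the untreated library numbered 1 it was 57 of 80 (median −0.08). The interaction, the difference between the genotypes in their change with IFN-β, called 0 of 80 members and 0% of all genes by limma. Both edgeR and DESeq2 also called 0 members. At an unadjusted p under 0.05 the interaction held 0 of 80 members, beside 0.292% of all genes. Its largest differences among members were −0.68 ± 0.57 (SE) for Rpl36a and 0.42 ± 0.31 for Rpl23a, each adjusted p = 1 by limma.

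**Figure D3:**
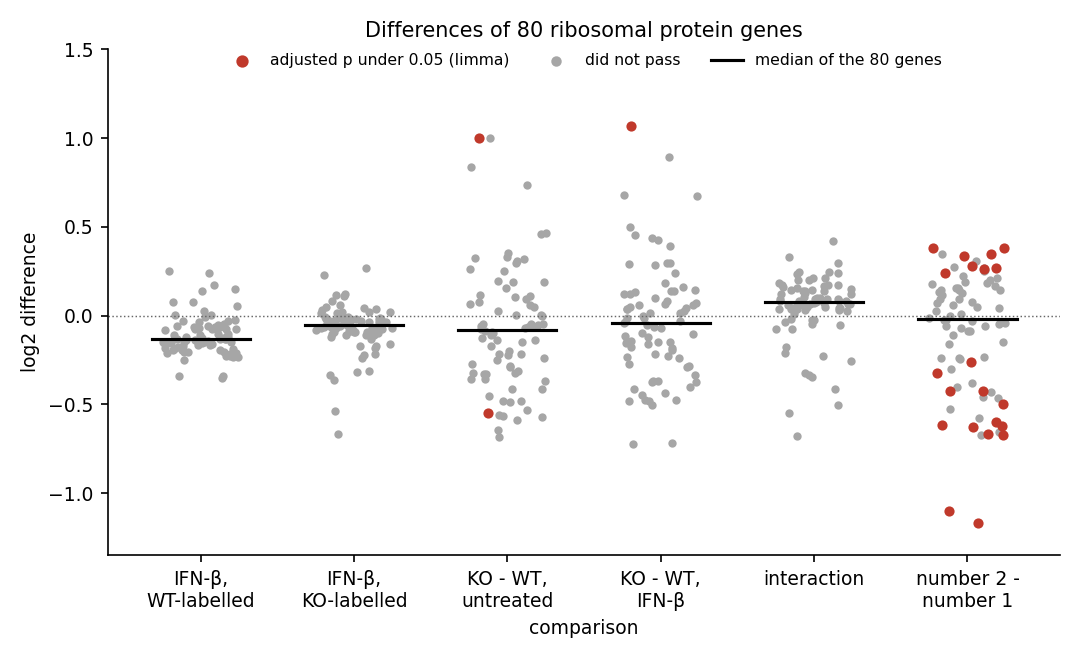
Log2 difference (vertical axis) of 80 ribosomal protein genes in 6 comparisons, with a point per gene, red where the limma adjusted p is under 0.05 and a bar at the median. No point is red for IFN-β or the interaction, 2 are red between genotypes untreated, 1 with IFN-β, and 21 between replicate numbers.

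The next question was how the genotypes differed. Rpl5, the 60S protein that carries 5S rRNA into the ribosome, was higher with the KO label in both treatments. It stood at 965, 861 and 614 normalised reads in the untreated WT-labelled libraries (813 ± 180 SD, n = 3) and 1864 and 1368 in the KO-labelled ones (1616 ± 351, n = 2). With IFN-β it stood at 822, 707 and 625 with the WT label and 1753 and 1275 with the KO label. All 4 KO-labelled libraries lay above all 6 WT-labelled libraries. The log2 difference was 1.00 ± 0.25 (SE, limma adjusted p = 0.0474) untreated and 1.07 ± 0.25 (adjusted p = 0.0369) with IFN-β. Both lay close to the threshold: each library left out in turn, the call held in 1 of 10 fits untreated and 4 of 10 with IFN-β, with adjusted p up to 0.20. With the replicate number as a block the difference was 0.86 ± 0.12 (adjusted p = 0.0021) and 0.92 ± 0.12 (adjusted p = 0.00149), and it passed in 10 of 10 such fits in each treatment. Rpl5 spans chr5:107900502-107909005 on the plus strand, and all of its 50-base coding windows also occur among 14 pseudogenes, so its reads cannot be assigned to this locus with certainty.

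Counts of members called stayed at or under the background without the block. Untreated, 1 of 80 was higher (Rpl5) and 1 lower, where 3% of all tested genes were higher and 3.23% lower. With IFN-β 1 was higher (Rpl5) and 0 lower, where 2.92% and 3.64% of all genes were. The median member differed by −0.08 untreated and −0.04 with IFN-β, beside 0.00 and 0.00 for all genes. With a library left out the untreated median ran from −0.14 (without the KO-labelled library numbered 2) to −0.05 (without the WT-labelled library numbered 2). With IFN-β it ran from −0.12 (without the KO-labelled IFN-β library numbered 1) to 0.01 (without the KO-labelled one numbered 2 or the WT-labelled one numbered 1), so its sign depended on single libraries. Without the WT-labelled IFN-β library numbered 2 it was −0.10. Both comparisons use different libraries, so neither shares controls with the other.

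The replicate number as a block moved these counts by more than 1.5 times. Untreated, 3 members were then higher with the KO label (among them Rpl5 and Rpl15) and 15 lower, which is 3.75% and 18.8% of 80 beside 13.5% and 13.1% of all genes. The lower members included Rpl6, Rpl7, Rpl7a, Rpl14, Rpl22l1, Rpl29, Rpl35, Rpl36al, Rpl37a, Rpl39, Rps3, Rps4x and Rps19. With IFN-β 7 were higher (among them Rpl5, Rpl15, Rpl23, Rpl23a, Rps3a and Rps12) and 7 lower (among them Rpl7, Rpl7a, Rpl12, Rpl36al, Rps3 and Rps4x), each 8.75%, beside 12.7% and 13.3% of all genes. The untreated count rested on both KO-labelled libraries. Without number 1 it was 2 higher and 0 lower, and without number 2 it was 1 higher and 1 lower, in fits that leave a lone library in that group and take its spread from the other groups. With IFN-β, 0 members were called lower without the WT-labelled IFN-β library numbered 1, without either WT-labelled library numbered 3 or without the KO-labelled IFN-β library numbered 1. Without the KO-labelled IFN-β library numbered 2, 1 member was called in each direction.

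Per-library values show what lies behind these counts. Rps3, a 40S protein at the mRNA entry channel that also has a role in DNA repair, stood at 16633, 18558 and 18522 in untreated WT-labelled libraries and 12586 and 12904 in KO-labelled ones. With IFN-β the values were 17257, 15374 and 18626 against 12764 and 12377. The ranges did not overlap, and only 8.09% of its windows are shared with another locus. The log2 difference of Rps3 was −0.49 ± 0.14 (SE, limma adjusted p = 0.0744) untreated and −0.44 ± 0.10 (adjusted p = 0.0158) with the block.

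Rps4x, the X-linked 40S gene with a Y-linked relative in humans, stood at 6486, 9229 and 6811 untreated with the WT label and 4364 and 5712 with the KO label. With IFN-β it stood at 6302, 6745 and 7173 against 4308 and 5646. Within each KO-labelled group the library numbered 2 was the higher. Its difference untreated was −0.57 ± 0.20 (SE, limma adjusted p = 0.148) without and −0.58 ± 0.13 (adjusted p = 0.0116) with the block.

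Rpl15, a 60S protein, went the other way. It stood at 1062, 871 and 922 with the WT label and 1471 and 1160 with the KO label untreated, and at 944, 821 and 965 against 1382 and 1191 with IFN-β. The ranges did not overlap, and all of its windows are shared. The log2 difference of Rpl15 untreated was 0.46 ± 0.17 (SE, limma adjusted p = 0.154) without and 0.47 ± 0.10 (adjusted p = 0.012) with the block.

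**Figure D4:**
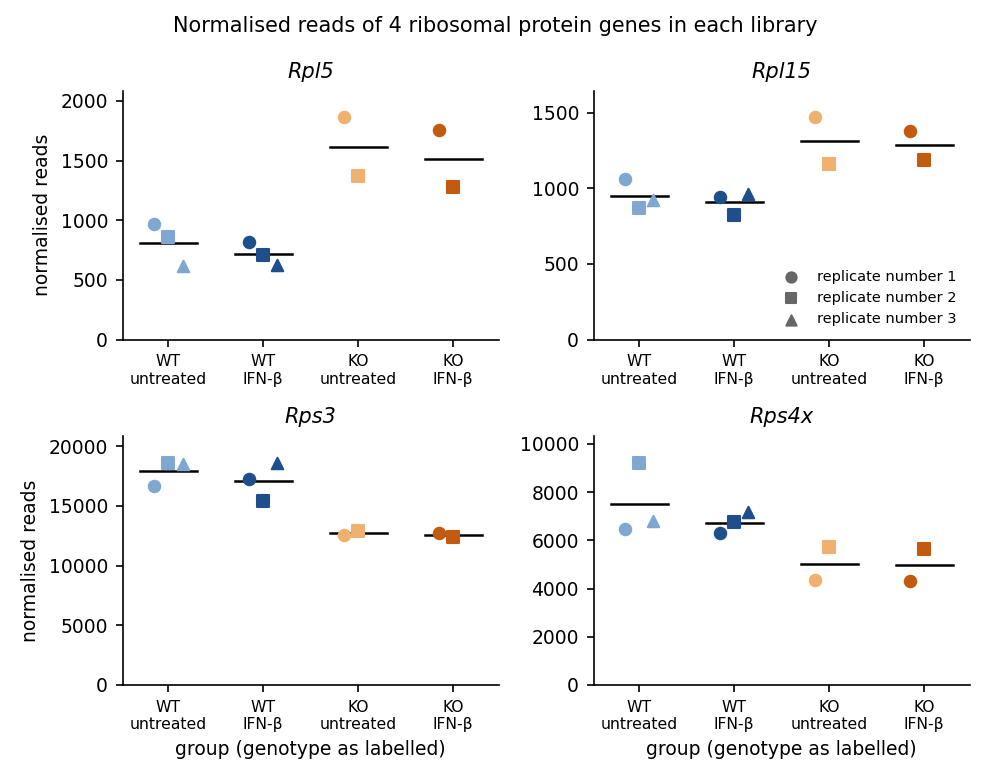
Normalised reads (vertical axis, from 0) of 4 genes in each library by group, with marker shape for the replicate number and a bar at the group mean. The KO-labelled libraries lie above all WT-labelled ones in Rpl5 and Rpl15 and below them in Rps3 and Rps4x.

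Over both treatments, all 4 KO-labelled libraries lay below all 6 WT-labelled ones in 17 of 80 members (21.3%), beside 9.83% of all tested genes. They lay above in 4 members (5%), beside 9.79%. The members below included Rpl6, Rpl7, Rpl7a, Rpl8, Rpl14, Rpl18, Rpl22l1, Rpl29, Rpl36al, Rpl37, Rpl39, Rps3, Rps4x, Rps14 and Rps19, and those above were Rpl5, Rpl15, Rpl23a and Rps3a. The ratio of the KO-labelled to the WT-labelled mean ran from 0.66 (Rpl14) to 0.86 (Rpl37) in the members below and from 1.25 (Rps3a) to 2.04 (Rpl5) in those above. Rpl8, the member with the most reads, was among them, at 29440 to 30014 with the KO label and 31744 to 47414 with the WT label. Rps19, the gene most often mutated in Diamond-Blackfan anaemia, stood at 2676 to 3016 against 3041 to 4698. With each library centred on the median deviation of the members, 11 lay below (13.8%, beside 6.82% of all genes) and 9 above (11.3%, beside 12.4%). That centring sets the median deviation of the members to 0 in every library. It draws the directions together by construction and cannot decide how the members split. The fibroblast marker sums of the genotypes overlapped, 0 of 10 such markers were higher and 1 (Dcn) lower with the KO label in each treatment, and the part of Dcn, Sox2 and Nes in these counts was not tested.

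Without the block no member of the expressed paralog pairs passed between genotypes untreated, and differences within pairs were not tested. Rpl22l1, a paralog of Rpl22 whose protein it can replace, stood at 1062, 1050 and 1142 in untreated WT-labelled libraries and 598 and 800 in KO-labelled ones, without overlap. Its log2 difference was −0.65 ± 0.17 (SE, limma adjusted p = 0.0536) and −0.61 ± 0.15 (adjusted p = 0.0195) with the block. Rpl22 itself differed by 0.19 ± 0.15 (adjusted p = 0.537). Rpl36al differed by −0.59 ± 0.18 (adjusted p = 0.0879), passing with the block, and Rpl36a by −0.04 ± 0.40 (adjusted p = 0.969). Rpl7 differed by −0.41 ± 0.13 (adjusted p = 0.0957) and Rpl7l1 by 0.11 ± 0.30 (adjusted p = 0.887). Rps27 and Rps27l differed by 1.00 ± 0.46 (adjusted p = 0.252) and −0.32 ± 0.25 (adjusted p = 0.526).

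Members in the named set that did not pass between genotypes, with or without the block, covered several roles. Untreated, Rplp0 differed by −0.07 ± 0.20 (SE), Rplp1 by 0.10 ± 0.15 and Rplp2 by −0.17 ± 0.18. Rpl11 differed by 0.31 ± 0.45, with a 95% interval of −0.71 to 1.33 that leaves a change of the size of Rpl5 within range. Rps27a, made as a fusion with ubiquitin, differed by 0.07 ± 0.37, and Rps6 by 0.06 ± 0.22. Rpl4, which ranked next to Rpl8 in reads, ran from 27628.5 to 36069 over all 10 libraries.

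Members were called between replicate numbers less often than all genes (26.2% beside 48.6%). The labels give each library a number, and libraries of the same number deviated together across all genes. After the groups were accounted for, 8 of 80 members (10%) were higher and 13 (16.2%) lower in number 2 than in number 1. Of all genes, 25.3% were higher and 23.3% lower, so the member shares were under the background in both directions. The lower members included Rpl38 (−1.17 ± 0.36 SE), Rpl34 (−1.10 ± 0.25), Rps27 (−0.67 ± 0.21), Rps27a (−0.67 ± 0.14) and Rpl7l1 (−0.63 ± 0.07), with limma adjusted p of 0.0261, 0.00792, 0.0297, 0.00544 and 0.000444. The higher ones included Rpl27a (0.38 ± 0.10), Rps4x (0.35 ± 0.09), Rpsa (0.33 ± 0.10) and Rplp0 (0.28 ± 0.10), with adjusted p of 0.0143, 0.0149, 0.025 and 0.045. Without any 1 of the 4 KO-labelled libraries 0 members were called higher and 8 to 13 lower. What a number marks is not given in the sources used here.

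Rpl38, a 60S protein that favours translation of some Hox mRNAs, had the lowest value and few reads. It stood at 64.8, 14.5 and 28.9 in the untreated WT-labelled libraries 1, 2 and 3, and at 61.8, 22.0 and 33.7 with IFN-β. In the KO-labelled libraries it stood at 48.2 and 62.2 untreated and 74.98 and 25.5 with IFN-β. Number 2 was below number 1 in 3 of 4 groups. Rpl7l1 stood at 4603, 3129 and 3529, then 4055, 2845 and 3273 with the WT label, and at 5334 and 3004, then 4596 and 2979 with the KO label. Number 2 was below number 1 in every group.

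Level went with this difference. Across the 80 tested members the Spearman correlation of the number difference with mean log2 level was 0.65 (Pearson 0.70), and with shared windows −0.37 (Pearson −0.25). These are descriptions over genes that share the same libraries. The 29 members with every window shared had a median number difference of −0.32, with 9 lower and 1 higher. The 13 tested members with under 50% shared had a median of 0.09, with 2 lower and 1 higher. The part of depth, RNA quality or shared sequence in the number difference was not tested.

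**Figure D5:**
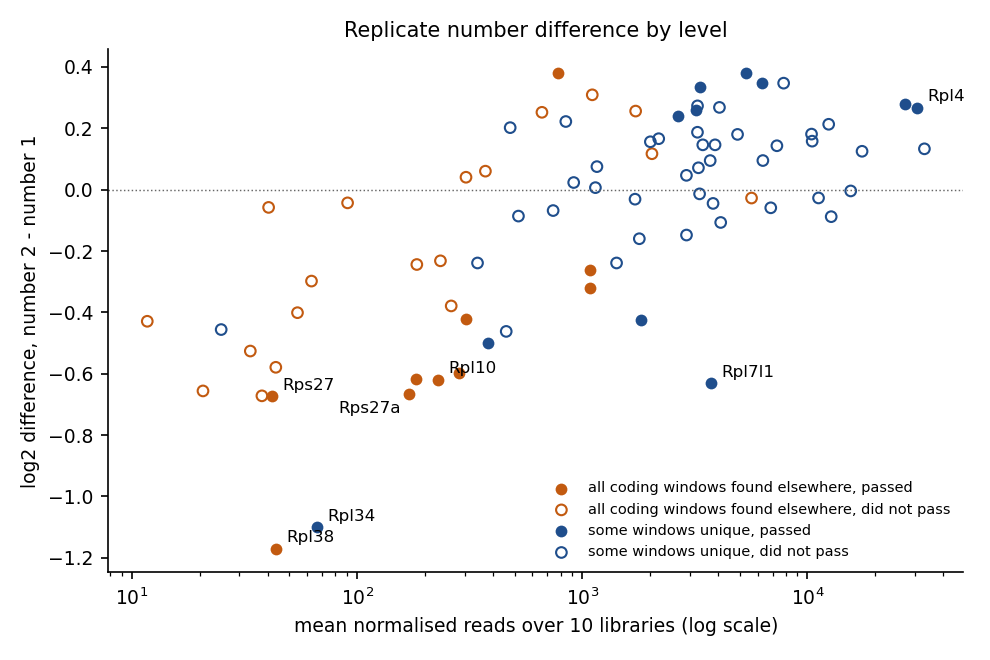
Log2 difference between replicate numbers 2 and 1 (vertical axis) against mean normalised reads over 10 libraries (horizontal axis, log scale) for 80 genes, filled where the limma adjusted p is under 0.05 and orange where every 50-base coding window is found elsewhere. The genes with the lowest values, Rpl38 (−1.17) and Rpl34 (−1.10), lie at low levels, while Rpl4 lies above 0.

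Genes around the ribosome were counted from fixed lists. For IFN-β, 2.21% of all tested genes passed with the WT label and 1.84% with the KO label. For IFN-β, 0 genes passed in either genotype among the mitochondrial ribosomal proteins (75 tested), ribosome-bound and fusion genes (3), elongation factors and other TOP genes (19), nucleolar assembly factors (27), RNA polymerase I genes and regulators (12), and mTOR and S6 kinase genes (21). With the block, Myc, a driver of ribosome production, rose with IFN-β in both genotypes (0.45 ± 0.10 SE and 0.70 ± 0.12, limma adjusted p = 0.0373 and 0.0148). With the block, 4.95% and 3.48% of all genes passed. Between genotypes without the block, 3% of all tested genes were higher and 3.23% lower untreated, and 2.92% and 3.64% with IFN-β. In these lists 1 gene passed untreated, Mrpl21 of the mitochondrial ribosome (−0.81 ± 0.17, limma adjusted p = 0.0267). With IFN-β, Mrpl9 (0.74 ± 0.17, adjusted p = 0.0392), Mrpl24 (0.59 ± 0.15, adjusted p = 0.0487) and the H/ACA snoRNP gene Gar1 (0.71 ± 0.17, adjusted p = 0.044) passed.

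The block raised these counts too, against 13.5% of all genes higher and 13.1% lower untreated and 12.7% and 13.3% with IFN-β. Mitochondrial ribosomal protein counts were under that background in both directions and both treatments. Untreated, 4 mitochondrial ribosomal protein genes were then higher with the KO label and 8 lower, and 1 nucleolar factor was higher and 5 lower. RNA polymerase I genes and regulators had 0 higher and 6 lower, among them Myc (−1.04 ± 0.12 SE, limma adjusted p = 0.000623) and the initiation factor gene Taf1b (−0.92 ± 0.17, adjusted p = 0.00624). Elongation factors and other TOP genes had 1 higher and 2 lower, and mTOR and S6 kinase genes 1 and 1. With IFN-β the counts higher and lower were 5 and 3, 1 and 2, 0 and 5, 2 and 1, and 1 and 1, in the same order of lists.

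Between replicate numbers, 25.3% of all genes were higher and 23.3% lower, and nucleolar factors were counted mostly in the lower direction. Of 27 tested, 26 were lower and 0 higher in number 2, with a median of −0.60, while the 80 ribosomal protein genes had a median of −0.02 and all genes 0.02. Rrp9 of the U3 snoRNP (−1.22 ± 0.13 SE, limma adjusted p = 0.000312), the export factor gene Rrp12 (−1.07 ± 0.15, adjusted p = 0.000858) and Utp15 (−0.91 ± 0.10, adjusted p = 0.000369) were the furthest. RNA polymerase I genes and regulators had 8 lower and 2 higher of 12, with Polr1e at −1.10 ± 0.14 and Myc at −0.90 ± 0.09 (adjusted p = 0.000527 and 0.000205). The share lower was near that of all genes among mitochondrial ribosomal proteins, with 18 lower and 2 higher of 75. Counts lower and higher were 7 and 4 of 19 for elongation factors and other TOP genes, 6 and 4 of 21 for mTOR and S6 kinase genes, and 0 and 0 of 3 for ribosome-bound and fusion genes.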

How the data were processed

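Stranded total-RNA libraries were read from tables with 23337 symbols each. Per the submitters' processing notes, cutadapt 1.13, STAR 2.5.2a, HTSeq, DESeq2 and the mm10 genome were used; roles, annotation, strand and multi-match settings are not given in the sources used here. The deposited signal holds gene counts scaled by the authors with a size factor per library; 100% of values were whole multiples of a read (tolerance 0.001 reads), so reads were recovered. Because the values were not raw counts, tests used limma 3.58.1 in R 4.3.3, with a mean-variance trend, on log2(normalised reads + 1), which understates changes of low genes, with 4 group means over 10 libraries, after filterByExpr (edgeR 4.0.16, minimum count 10; 12313 genes). Calls need a two-sided Benjamini-Hochberg adjusted p under 0.05 over all tested genes. The count test (edgeR quasi-likelihood) on recovered reads called 259 and 205 genes for IFN-β, 710 and 748 between genotypes and 0 for the interaction. DESeq2 1.42.0 was a further alternative.

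Members and lists were chosen with earlier results of these data known. The named genes were the P-stalk genes, Rpsa, Rps3, Rps6, Rps19, Rps27a, Rpl5, Rpl11, Rpl13a, paralog pairs, up to 5 called members per direction and comparison, and the 3 highest and 3 lowest by mean; others named alone (Rps13, Rps29, Rpl30, Rpl41, Rpl7a, Rpl14, Rpl15, Rpl18, Rpl23a, Rpl37, Rpl37a, Rps3a, Rps14, Rps16, Rpl28) were chosen after their values were seen. Some genes counted in the totals are not reported here by name. Deviations of same-numbered libraries in different groups correlated at 0.48 to 0.87 over all genes, and at most at 0.32 between different numbers. Over the members these ranges overlapped, at −0.08 to 0.73 and up to 0.48. In the groups of 2 libraries, deviations from the group mean mirror each other, so values for the same and for different numbers are not independent. Numbers were taken to pair the libraries from the values over all genes, so the pairing comes from the data. The fits were tested on simulated data, where DESeq2 made more false calls between genotypes with IFN-β than the limit first set for each tool, and its limit was then loosened; its counts are given only as an alternative.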

Additional observations from a re-analysis of the deposited data

Results flagged for a closer look

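A row outside the 85 genes held reads. Rps19-ps3, a row named as a pseudogene of Rps19, had a mean of 16.3 normalised reads over the 10 libraries (8.26 to 26.1), above the limit of 3 reads that a count of 0 allows in every library. No group had enough libraries for a check for outlying samples.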

How the results depend on the processing

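For IFN-β in either genotype and for the interaction, 0 members were called under every alternative run, including each library left out (0 to 0). Between genotypes untreated, the 2 calls became 18 with the replicate block, 1 with edgeR, 9 with DESeq2 (1 higher, 8 lower), 4 with TMM scaling, 1 with centring on the median member deviation (chosen after seeing the data), 0 without a low-count filter, and 0 to 1 with a library left out. With IFN-β, the 1 call became 14 with the block, 8 with DESeq2, 2 with centring on the median ribosomal protein gene, and 0 to 1 with a library left out. The block changed no IFN-β or interaction call. Of all genes, 6.23% were called between genotypes untreated in the main fit, 26.6% with the block, 5.77% with edgeR and 12.3% with DESeq2. The share was 6.33% with TMM scaling, 5.61% with centring on the median member deviation and 4.44% without a filter. With IFN-β it was 6.55% in the main fit, 26% with the block, 12.2% with DESeq2 and 5.38% with centring on the median ribosomal protein gene. Untreated, DESeq2 called 10% of members lower, beside 6.2% of all genes. Between replicate numbers, the 21 calls became 40 (33 higher, 7 lower) with centring on the median ribosomal protein gene and 8 to 31 with a library left out: 8 without either KO-labelled IFN-β library, 13 without either untreated KO-labelled or without the untreated WT-labelled library numbered 1, and 31 without the WT-labelled IFN-β library numbered 2. Centring on the median ribosomal protein gene moved the median of all genes to 0.27 and 0.19 between genotypes and 0.19 between numbers, and centring on the median member deviation moved the first to 0.13. Between numbers, centring on the median ribosomal protein gene called 50% of members and 46.9% of all genes, beside 26.2% and 48.6% in the main fit. Leaving out a library under the block gave 2 to 21 calls untreated and 1 to 21 with IFN-β. Of 3390 values of named genes under alternatives, 90 lost and 32 gained a call and 0 called values changed sign. Members under about 100 normalised reads (13 of 80) have wide intervals at this depth.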
